A study of Homo sapiens with 8 samples.

Results

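The untreated control cells of the study are described here on their own, as a baseline small RNA profile of H1299 cells that carry no p53. H1299 is a human non-small cell lung cancer line that was established from a lymph node metastasis and lacks p53 protein. The cells had been infected with an empty vector (EV) and were grown at passages 15 to 20 without any drug. Of the 8 libraries of the series, 2 belong to this group, and they are called EV library 1 and EV library 2. The other libraries came from EV cells given etoposide and from cells that express the R273H mutant of p53, and they enter no comparison here. Small RNA was sequenced on an Ion PGM instrument, and the values are read counts that the authors normalized with DESeq. A value is thus scaled by a factor for its library and is not divided by length. The offset that remains between the libraries on this scale is given further on. The study calls its libraries of a group biological replicates, and nothing in the labels says whether both came from separate cultures. A small RNA table cannot show the p53 status of the cells, and that label was not checked.

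A microRNA (miRNA) is cut from a hairpin precursor, first in the nucleus and then in the cytoplasm. Each hairpin can give a mature strand from its 5p arm and another from its 3p arm, and usually a single strand is kept by an Argonaute protein while the partner is lost. The kept strand pairs with messenger RNAs mainly through its seed, bases 2 to 8, so miRNAs with the same seed can share targets and are grouped as a seed family.

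The table held 754 miRNA features among 1021 features in all. The remaining features were 260 tRNA genes, 3 rRNAs and 4 adapter sequences. EV library 1 held 579337 annotated reads and EV library 2 held 260160, a ratio of 2.23, so low values are better measured in EV library 1. In normalized counts, 1 read was worth 0.692 in EV library 1 and 1.59 in EV library 2. A miRNA listed at 0 had no read, but a true level of up to about 3 reads at this depth could still give 0. That level is 0.000559% of the miRNA reads of EV library 1 and 0.00120% of those of EV library 2. All confidence intervals given are exact (Clopper-Pearson) intervals at 95% and cover counting error only, because copies made by PCR are not independent molecules. Levels of different miRNAs are compared as reads, and the efficiency with which each strand was ligated and copied was not measured.

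The sequences of the 10 most abundant miRNAs are printed first because the seed families and the strand choices described further on rest on them. They are mature sequences from RefSeq (annotation of GRCh38.p14), written 5′ to 3′ with the seed in capitals:
miR-21-5p: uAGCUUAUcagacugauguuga
miR-31-5p: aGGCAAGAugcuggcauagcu
miR-29b-3p: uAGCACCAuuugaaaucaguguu
miR-23a-3p: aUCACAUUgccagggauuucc
miR-100-5p: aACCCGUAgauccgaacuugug
miR-30c-5p: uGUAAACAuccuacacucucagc
miR-24-3p: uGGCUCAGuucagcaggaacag
miR-27a-3p: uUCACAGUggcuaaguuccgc
miR-103a-3p: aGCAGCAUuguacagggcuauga
let-7a-5p: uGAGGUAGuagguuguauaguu
No seed occurs more than once among these 10 miRNAs, so the head of the profile spans 10 separate seed families.

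The profile was dominated by miR-21-5p, a miRNA known for raised levels in many tumors and for repression of PDCD4. Its normalized count was 153714 in EV library 1 and 164322 in EV library 2 (159018 ± 7501, SD, n = 2). It took 41.3% of the miRNA reads of EV library 1 (95% interval 41.2 to 41.5%) and 41.3% of those of EV library 2 (41.1 to 41.5%). The share of miR-21-5p thus differed between the libraries by less than their counting intervals, although the normalized counts were 1.07 times higher in EV library 2.

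The next miRNA was miR-31-5p, whose gene lies beside the CDKN2A tumor suppressor locus. Its normalized count was 20578 in EV library 1 and 21106 in EV library 2 (20842 ± 374, SD, n = 2), so miR-21-5p gave 7.63 times as many counts. The mean of miR-29b-3p, which is known to repress collagens and DNA methyltransferases, was 19111 ± 1589, from 20234 and 17987. These and miR-100-5p, the fifth in rank, are the 4 miRNAs that had been listed as marks of this profile, and together they held 57.4% and 54.1% of the miRNA reads. Their ranks follow from the ordering of the profile and carry no test.

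From the fourth to the eighth rank, 3 of 5 miRNAs belong to the miR-23a, miR-27a and miR-24 group. These can be made from a shared primary transcript, but miR-24-3p can come from both MIR24-1 and MIR24-2. The normalized count of miR-23a-3p was 16996 in EV library 1 and 18497 in EV library 2. That of miR-27a-3p was 10697 and 10634, and that of miR-24-3p was 13430 and 11325. In each library the order was miR-23a-3p, miR-24-3p and then miR-27a-3p. The means of miR-24-3p (12378 ± 1488, SD, n = 2) and miR-27a-3p (10665 ± 44.8) lay little further apart than the SD of the former.

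The 2 other miRNAs in this range were the least stable of the leading miRNAs. The normalized count of miR-100-5p, a miRNA known to repress mTOR, was 18717 in EV library 1 and 11984 in EV library 2 (15350 ± 4762, SD, n = 2). The normalized count of miR-30c-5p, a member of a family with roles in epithelial cells, was 10041 and 20405 (15223 ± 7328, SD, n = 2). By their means they were neighbors in rank, but their order was opposite in the libraries, with miR-100-5p at rank 4 and miR-30c-5p at rank 8 in EV library 1, and miR-30c-5p at rank 3 and miR-100-5p at rank 6 in EV library 2. The means of these 2 miRNAs did not differ beyond the spread between libraries.

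The tenth rank closed a group that was the same in both libraries. The normalized count of miR-103a-3p, which is encoded in introns of pantothenate kinase genes, was 8578 and 8826. That of let-7a-5p, a member of the let-7 family that restrains RAS and HMGA2, was 6692 and 8457. All of the 10 highest miRNAs by mean were also among the 10 highest of each library, with miR-19b-3p tied with let-7a-5p at 9666 reads in EV library 1. Of the 20 highest, 19 were shared between the lists of both libraries.

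The ranks from 11 to 20 were taken by miR-19b-3p, miR-29a-3p, miR-26a-5p, miR-191-5p, miR-106b-5p, miR-30b-5p, miR-222-3p, miR-15b-5p, miR-30a-5p and miR-93-5p, with mean normalized counts that fell from 7436 to 3332. Among them are miR-222-3p, known to repress the cell cycle inhibitor p27, and miR-26a-5p, known to repress EZH2. The libraries were close for miR-30a-5p (3708 and 3632), miR-93-5p (3230 and 3433) and miR-15b-5p (3644 and 3949). They were far apart for miR-26a-5p (3872 and 7451) and miR-30b-5p (2661 and 5177). The twentieth miRNA, miR-93-5p, had a mean of 3332 and the next, miR-125b-5p, had 2898.

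**Figure D1:**
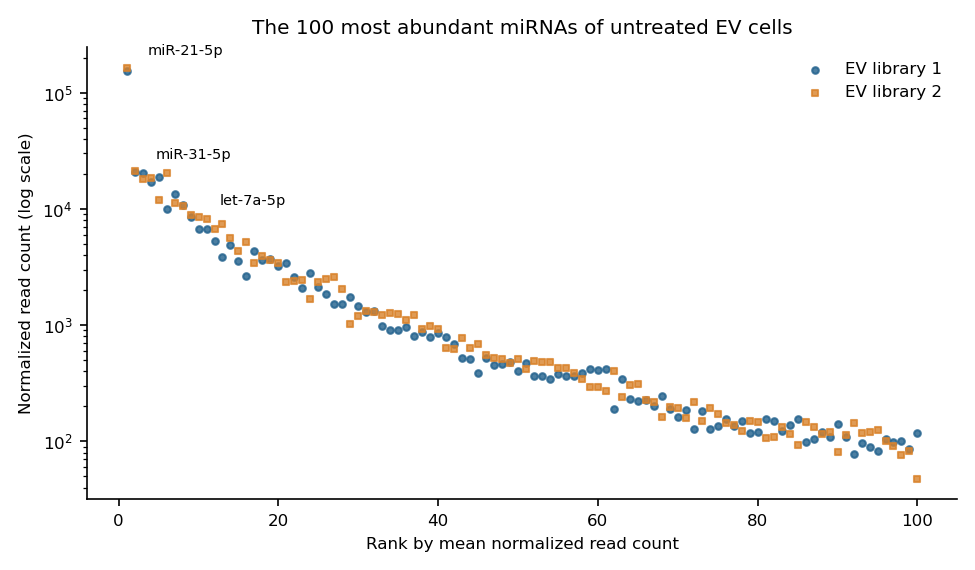
Normalized read count (log scale) against rank by mean for the 100 most abundant miRNAs, with a point for each EV library. miR-21-5p stands above the rest at 153714 and 164322, miR-31-5p follows at 20578 and 21106, and the curve falls to a mean of 82.8 at rank 100.

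Reads were concentrated in few miRNAs. The 10 highest miRNAs held 75.2% of the miRNA reads of EV library 1 (95% interval 75.1 to 75.3%) and 73.7% of those of EV library 2 (73.6 to 73.9%), a mean of 74.5% ± 1.06 (SD, n = 2). The 3 highest miRNAs were enough for 50% of the miRNA signal, and 26 were needed for 90%. Reaching 95% took 42 miRNAs and 99% took 106. The 654 listed miRNAs beyond rank 100 together held 1.12% of the miRNA reads of EV library 1 and 1.11% of those of EV library 2. The paper reports more miRNA reads and more miRNAs with a read in each of these libraries than the deposited values hold. The share of this tail and the counts of detected miRNAs therefore cover the listed miRNAs only and can be too low.

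The count of detected miRNAs covers the miRNAs that the table lists. At least 1 read was found in both libraries for 353 miRNAs, at least 10 reads for 185, at least 100 reads for 74 and at least 1000 reads for 28. A further 247 miRNAs had a read in a single library, 173 in EV library 1 and 74 in EV library 2, and none of these had more than 6 reads. The other 154 were listed at 0 in both libraries. The median miRNA of the table had a mean normalized count of 1.04.

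A seed was assigned to 658 of the 754 miRNAs, those with a mature sequence of the same name, and these held 97.0% of the miRNA signal. They fell into 569 seeds, of which 516 had a single miRNA and 53 had 2 or more. The most abundant miRNAs without a matched sequence were miR-30b-5p, miR-425-5p, miR-151a-5p and miR-31-3p, and they are in no family sum. The 10 highest families held 78.8% of the miRNA reads of EV library 1 and 78.1% of those of EV library 2 (78.5% ± 0.556, SD, n = 2), which is little more than the 10 highest single miRNAs held.

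In several of the families with further members, a single member gave nearly all of the signal. The family of miR-21-5p shares the seed AGCUUAU with miR-590-5p, but miR-21-5p gave 99.2% of its signal. The values of miR-590-5p were 1286 and 1332, at rank 31 of all miRNAs. Likewise miR-100-5p gave 99.1% of its family, with miR-99b-5p at 104 and 100.4 and miR-99a-5p at 45 and 38.3. The share of miR-27a-3p in its family was 99.2%, beside miR-27b-3p at 86.5 and 82.9. That of miR-23a-3p was 97.8%, beside miR-23b-3p at 363 and 424 and miR-23c at 0 in both. The seeds of miR-31-5p (GGCAAGA) and miR-24-3p (GGCUCAG) had no further miRNA in the table.

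The other families were shared more evenly. In the miR-29 family (seed AGCACCA) miR-29b-3p gave 76.0% of the signal and miR-29a-3p 23.8%, and miR-29c-3p was at 49.2 and 35.1. In the miR-19 family (seed GUGCAAA) miR-19b-3p gave 76.5% and miR-19a-3p 23.5%. In the miR-30 family (seed GUAAACA) the members with a matched sequence were miR-30c-5p (78.2% of their signal), miR-30a-5p (18.9%) and miR-30e-5p (2.95%). Their share was 3.84% of the miRNA reads of EV library 1 and 6.20% of those of EV library 2, a ratio of 1.62, and the miR-100-5p family had a ratio of 1.67 the other way, with 5.07% and 3.04%.

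The miR-30 sum leaves out miR-30b-5p and miR-30d-5p, which bear the family name but had no matched sequence. With the miRNAs named miR-30a-5p to miR-30e-5p added up, the mean was 24036 in place of 19467, which is above miR-31-5p, and the shares were 4.74% and 7.65%. Of that sum miR-30c-5p gave 63.3%, miR-30b-5p 16.3%, miR-30a-5p 15.3%, miR-30d-5p 2.71% and miR-30e-5p 2.39%.

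Among the 10 highest families, the let-7 family (seed GAGGUAG) had the most members, 9 miRNAs. Of these 7 had at least 10 reads in both libraries, against 24.5% of all miRNAs of the table. Together the 9 members held 2.27% and 2.75% of the miRNA reads. The member let-7a-5p gave 78.1% of the family, let-7f-5p 10.4%, let-7e-5p 6.70% and let-7g-5p 2.75%. The values of let-7b-5p were 64.4 and 66.9, those of let-7d-5p were 60.9 and 71.7, and those of let-7i-5p were 56.1 and 39.8. The lowest were let-7c-5p and miR-98-5p, with means of 7.14 and 6.89. The order of let-7b-5p and let-7d-5p was opposite in the libraries and their means lay within the spread.

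**Figure D2:**
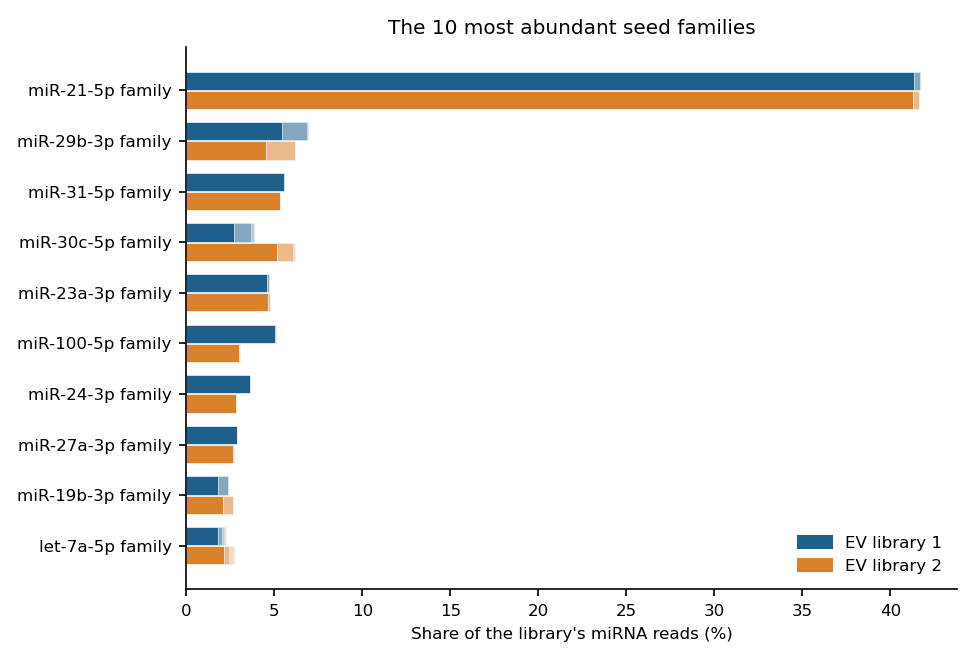
Share of each library's miRNA reads (%) in the 10 most abundant seed families, each named for its highest member, with darker segments for the highest member and paler segments for the others. The miR-21-5p family holds 41.7% and 41.6%, and the miR-30c-5p family, drawn without miR-30b-5p and miR-30d-5p, holds 3.84% and 6.20%.

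Several members of these families differ from each other by a single base, and the counts rest on how reads with that base were assigned. The sequence of let-7a-5p with those of let-7e-5p and let-7f-5p, and that of miR-103a-3p with that of miR-107, are printed to show how small the difference is, with the seed again in capitals:
let-7a-5p: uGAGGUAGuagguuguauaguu
let-7e-5p: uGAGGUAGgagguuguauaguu
let-7f-5p: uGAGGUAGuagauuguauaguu
miR-103a-3p: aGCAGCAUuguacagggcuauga
miR-107: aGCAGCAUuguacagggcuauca
Counted from 1 at the 5′ end of the more abundant miRNA, the substitution is U9G for let-7e-5p, G12A for let-7f-5p and G22C for miR-107. Among members of the highest seed families with a mean of at least 20, 9 such pairs were found. Their ratios of the higher to the lower miRNA in EV library 1 went from 3.18 for miR-19b-3p over miR-19a-3p to 416 for miR-100-5p over miR-99a-5p (A16U). In EV library 2 the same pairs gave 3.32 and 313. For miR-103a-3p over miR-107 the ratio was 35.1 in EV library 1 and 54.8 in EV library 2. How far a read error at these bases adds to the lower member was not tested, so the lower member of each pair is uncertain.

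The genes of the leading miRNAs were placed on GRCh37, the build the authors used, with the GENCODE 44 annotation. MIR21 lies at chr17:57918627-57918698 on the plus strand, where it overlaps an exon of VMP1. MIR31 lies at chr9:21512114-21512184 on the minus strand, in an intron of the long noncoding RNA MIR31HG. MIR23A (chr19:13947401-13947473) and MIR27A (chr19:13947254-13947331) are neighbors on the minus strand, both over an exon of the host transcript MIR23AHG. MIR100 (chr11:122022937-122023016) and MIRLET7A2 (chr11:122017229-122017301) both lie in introns of MIR100HG on the minus strand.

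More than a single gene can give the same mature strand, and such reads cannot be assigned to a copy. For miR-103a-3p the genes are MIR103A1 in an intron of PANK3 (chr5:167987897-167987982) and MIR103A2 in an intron of PANK2 (chr20:3898141-3898218). For miR-30c-5p they are MIR30C1 in an intron of NFYC (chr1:41222956-41223044) and MIR30C2 over an exon of LINC00472 (chr6:72086663-72086734). For let-7a-5p, MIRLET7A1 (chr9:96938234-96938325) and MIRLET7A3 (chr22:46508629-46508702) lie over exons of their host transcripts and add to MIRLET7A2.

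Strand choice was examined in the 193 precursors with both arms listed, with copies of a gene summed. A total of at least 20 normalized counts was reached by 110 of them. The 5p arm led in 73 and the 3p arm in 37, and the same arm led in both libraries in 108 of 110. The exceptions were miR-652 and miR-362, with 69 and 32 reads of both arms for miR-652 and 34 and 14 for miR-362. Ratios are given as log2 of the 5p over the 3p normalized count with 1 added to each. Their median absolute value was 4.67, with 4.58 in EV library 1 and 4.87 in EV library 2. In 64 of the 110 precursors the minor arm was under 5% in both libraries, and in 26 it was under 1%.

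Among the 20 most abundant miRNAs, 12 came from a 5p arm and 8 from a 3p arm, and 19 had the other arm listed. The minor arm was under 1% in both libraries for 12 of these 19. It was highest for miR-31, whose 3p arm gave 5.99% of the reads of EV library 1 and 5.83% of those of EV library 2. The others at 1% or more in a library were miR-15b (3.61% and 3.35%), miR-93 (2.95% and 2.58%), miR-106b (2.14% and 3.22%), miR-24 (1.0003% and 1.497%), miR-27a (1.31% and 0.759%) and miR-19b (1.02% and 0.581%). The normalized count of miR-31-3p was 1311 and 1307, so this minor arm stood at rank 32 of all 754 miRNAs. The arms of miR-21 were far more unequal. The count of miR-21-3p was 383 and 426, which is 0.248% and 0.258% of the reads of that hairpin, yet still at rank 55 overall.

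The precursors with the strongest lean to the 5p arm were miR-26a, miR-30b, miR-185, miR-100 and miR-191. For miR-26a, 5593 reads against 3 were found in EV library 1 and 4675 against 0 in EV library 2. For miR-185 the 3p arm had no read in either library, against 2185 and 1616 reads of the 5p arm, so with a floor of 3 reads per library the 5p arm was at least 728-fold higher in EV library 1 and at least 539-fold higher in EV library 2. For miR-100 the 3p arm gave 28 and 14 reads, or 0.103% and 0.186%. The log2 ratios of these 5 precursors went from 9.42 for miR-191 to 11.44 for miR-26a, and where the minor arm is near 0 the ratio depends on the added count.

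The strongest lean to the 3p arm was found in miR-103a, miR-29b, miR-19a, miR-342 and miR-29a. For miR-29b, 29227 reads of the 3p arm faced 11 of the 5p arm in EV library 1, and 11286 faced 4 in EV library 2. For miR-103a the 5p arm had 3 reads and 0 reads against 12390 and 5538. For miR-342 no 5p read was found against 662 and 318 reads of the 3p arm, so by the same floor the 3p arm was at least 221-fold higher in EV library 1 and at least 106-fold higher in EV library 2. Both precursors of the miR-29 family with high counts thus kept the 3p arm, and so did both of the miR-19 family.

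Balanced precursors were few. In 11 of the 110 each arm gave between 25% and 75% of the reads in both libraries. Nearest to equality were miR-652, miR-130b, miR-296, miR-362 and miR-324. The 5p share of miR-130b was 54.4% (95% interval 46.3 to 62.3%) in EV library 1 and 57.0% (47.1 to 66.5%) in EV library 2. For miR-296 it was 43.8% (35.6 to 52.3%) and 43.5% (28.9 to 58.9%). These intervals include equal shares, and they are wide because only 146 and 46 reads, in the case of miR-296, were available.

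The exact intervals of the 5p share overlapped between the libraries in 101 of 110 precursors, many of which have wide intervals or a minor arm near 0. On the log2 scale the arm ratios differed between the libraries by a median of 0.58. The 5p share of miR-423 was 24.2% (18.7 to 30.4%) in EV library 1 and 46.3% (32.6 to 60.4%) in EV library 2. A smaller difference, on more reads, was seen in miR-17. There the 5p arm gave 73.3% of the reads of EV library 1 (70.5 to 76.0%) and 58.0% of those of EV library 2 (53.9 to 62.0%). The value of miR-17-5p was 520 and 556, whereas miR-17-3p was at 189 and 403. The difference in miR-17 thus lay in the 3p arm. Both arms of miR-17 are printed because their seeds differ:
miR-17-5p: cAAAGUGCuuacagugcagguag
miR-17-3p: aCUGCAGUgaaggcacuuguag

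The base at the 5′ end, which contacts the Argonaute protein, was not used to choose the leading arm. With each arm taken by its most abundant form, 95 of the 110 precursors had a sequence for both arms. Of the leading arms, 59 of 95 began with U (62.1%), 19 with A, 12 with C and 5 with G. Of the minor arms, 13 of 95 began with U (13.7%), 32 with A, 42 with C and 8 with G. The median GC content was 47.6% in the leading arms and 50% in the minor arms, and the median length was 22 bases in each. Among the 167 miRNAs with a sequence and at least 10 reads in both libraries, those that begin with U held 74.3% and 77.1% of the reads, and without miR-21-5p they held 55.2% and 60.0%.

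The miRNAs of the miR-17-92 cluster, a polycistron known as an oncogene and transcribed as a single RNA, were listed in 8 of 9 cases. At least 10 reads in both libraries were found for 7 of 9, against 24.5% of all miRNAs of the table. They differed widely in level. The highest, miR-19b-3p, was at 6692 and 8181, followed by miR-19a-3p at 2103 and 2462 and by miR-18a-5p at 2125 and 2354, whose means did not differ beyond the spread. The others were lower, with miR-17-5p at a mean of 538, miR-20a-5p at 457 and miR-92a-3p at 447, and miR-20a-3p at 4.85 and 9.56. Of this list miR-17-3p had 189 and 403. Some of the reads of miR-19b-3p and miR-92a-3p can come from copies on the X chromosome. Of the miR-106b-25 cluster in an intron of MCM7, miR-106b-5p (3574 and 4318) and miR-93-5p (3230 and 3433) were alike in level, and miR-25-3p was lower at 390 and 343. The other arms were at 78.2 and 143 for miR-106b-3p, 98.3 and 90.8 for miR-93-3p and 11.8 and 12.8 for miR-25-5p.

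Of the cell type lists, the endothelial one (2 of 2 miRNAs) and the neural one (4 of 6) had members with at least 10 reads in both libraries. Members of the other cell type lists were near 0. None of the 8 epithelial markers reached 10 reads in both libraries. The miR-200 family, which represses ZEB1 and ZEB2 and keeps cells epithelial, had no more than 1 read of any listed member in a library, and miR-200c-3p, miR-141-3p and miR-429 were at 0 in both. The sum over the epithelial list was 9 in EV library 1 and 22.3 in EV library 2, mostly miR-203a (5.54 and 11.2) and miR-205-5p (2.08 and 9.56), while miR-200a-3p, miR-200b-3p and miR-375 each had a read in 1 library. In bulk RNA, few cells with a miRNA and little of it in each cell cannot be told apart. Over all miRNAs of the table, 24.5% reached 10 reads in both libraries.

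The sums of the blood markers (17.3 and 12.8), of the fibroblast and smooth muscle markers (7.62 and 11.2) and of the muscle markers (0.69 and 0) were as low. Of the blood markers, miR-486-5p was at 8.31 and 6.38 and miR-451a at 5.54 and 4.78, with miR-223-3p and miR-142-3p below 3 and miR-144-5p at 0. Of the fibroblast and smooth muscle markers, miR-145-5p was at 2.08 and 6.38, with miR-143-3p, miR-199a-3p and miR-199b-5p at means under 3 and miR-199a-5p at 0. The muscle marker miR-1 had 1 read in EV library 1, and miR-133a-3p and miR-206 were at 0. The liver marker miR-122-5p was at 6.92 and 1.59, and of 8 markers of pluripotent cells 1 was listed, miR-302d-3p, with a single read. Higher levels were found for miR-126-3p, an endothelial miRNA from an intron of EGFL7, at 868 and 918, with miR-126-5p at 60.2 and 68.5. In the neural list miR-128-3p was at 366 and 384, miR-9-5p at 161 and 193 with miR-9-3p at 36.7 and 49.4, and miR-137 at 38.1 and 33.5. By contrast miR-129-5p was at 0 and 6.38, and miR-124-3p, the most neuron-restricted of them, had 1 read in EV library 1 and 0 in EV library 2.

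The miRNAs known as targets of p53 were detected in these p53-null cells. The table held 5 of the 6 listed, and 5 had at least 10 reads in both libraries, against 24.5% of all miRNAs of the table. Their means went from 15.3 to 74.4 at ranks 107 to 182, above the median miRNA (1.04) and far below the leading ones. The normalized count of miR-34a-5p, a direct p53 target that holds back the cell cycle, was 13.2 and 17.5. That of miR-34b-5p was 45.7 and 68.5, and that of miR-34c-5p was 26.3 and 30.3. The values of miR-192-5p were 86.5 and 62.2 and those of miR-194-5p were 18 and 31.9. Together they held 0.0510% and 0.0528% of the miRNA reads, with intervals that overlap.

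From the HOX loci, miR-10a-5p stood out at 1450 and 1199, against 42.2 and 41.4 for miR-10b-5p. How reads were divided between these 2 miRNAs was not tested, so the lower value is uncertain. The others were miR-196a-5p at 98.3 and 147, miR-196b-5p at 3.46 and 0 and miR-615-3p at 11.1 and 3.19. Of the inflammation-linked miRNAs of the NF-kB pathway, miR-155-5p was at 11.8 and 14.3, miR-146b-5p at 12.5 and 4.78 and miR-146a-5p at 0 in both. The means of miR-155-5p (13.1) and miR-146b-5p (8.62) were far below the leading miRNAs but above the median miRNA (1.04). The other arm of the miR-146a hairpin, miR-146a-3p, was at 5.54 and 4.78.

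The libraries were compared over the 206 miRNAs whose mean reached 10 normalized counts. The median absolute log2 ratio between them was 0.34, whereas counting error alone gives about 0.17. Above a mean of 1000 (37 miRNAs) the observed value was 0.27 and the counting value 0.02. In this range 32 of 37 miRNAs lay outside the 95% range of counting error, which is narrow at such counts and leaves out any spread between samples. An SD over 2 libraries has a single degree of freedom, and each SD given is a rough value.

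Among the 96 miRNAs with a mean of at least 100, the miRNAs furthest up in EV library 2 were miR-17-3p, miR-30c-5p, miR-30b-5p, miR-26a-5p and miR-106b-3p, with log2 ratios from 1.09 to 0.87. Those furthest down were miR-27a-5p, miR-221-3p, miR-151a-5p, miR-339-5p and miR-100-5p, with log2 ratios from -0.80 to -0.64. A ratio of 2-fold or more was reached by 2 of the 96, miR-17-3p and miR-30c-5p. Of miR-221-3p, which shares its seed with miR-222-3p, the values were 2814 and 1673.

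Annotated reads are those of miRNA, tRNA and rRNA features, and among them fragments of tRNA were the next class after miRNAs. Processed reads that the authors mapped to none of these classes are not counted. Shares of all processed reads would therefore be lower than the shares given here. Reads assigned to tRNA made 6.92% of the annotated reads of EV library 1 (95% interval 6.85 to 6.98%) and 3.75% of those of EV library 2 (3.68 to 3.83%), so the share was 1.84 times higher in EV library 1. Of the 260 tRNA features, 149 had a read in both libraries and 50 had at least 10 reads in both. These reads were concentrated too, with 2 features for 50% of the signal and 19 for 90%.

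A single feature, chr12.trna10-AspGTC, an aspartate tRNA gene with the anticodon GTC, had 10973 normalized counts in EV library 1 and 4679 in EV library 2. Its mean of 7826 would take rank 10 among the miRNAs. It held 39.5% of the tRNA reads of EV library 1 (39.1 to 40.03%) and 30.1% of those of EV library 2 (29.2 to 31.0%). Without it the tRNA share was 4.18% and 2.62%, still 1.59 times higher in EV library 1. The next features were chr1.trna124-GlyCCC (3414 and 2599), chr6.trna61-MetCAT (1970 and 704) and chr1.trna33-GlyGCC (1664 and 1006).

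The remaining features of the highest 10 lay between means of 440 and 960 and were chr6.trna113-AlaTGC, chr1.trna54-GluCTC, chr6.trna136-ValAAC, chr11.trna5-LysTTT, chr10.trna6-ValTAC and chr6.trna144-AspGTC. Copies of a tRNA gene can be identical, so a feature may stand for reads of several genes, and sums by amino acid are safer than single features.

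By amino acid, aspartate tRNAs summed to 11844 and 5110, glycine tRNAs to 5717 and 4083 and valine tRNAs to 2766 and 1452. These were followed by alanine (1666 and 1438), methionine (1982 and 719), lysine (1340 and 773) and glutamate (1153 and 830). Each of the other groups summed to a mean of under 300, from serine (249 and 333) to tRNAs of undetermined type and suppressor tRNAs with 2 reads or fewer in a library. Within the tRNA reads, aspartate made 42.7% and 32.8%, glycine 20.6% and 26.2%, alanine 6.01% and 9.24% and methionine 7.14% and 4.62%. The shares of lysine tRNAs were near equal, at 4.83% and 4.97%.

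The lower groups by mean were leucine (247), isoleucine (231), tryptophan (121), threonine (77.6), glutamine (56.1), tyrosine (44.6), arginine (44.5), proline (35.5), histidine (23.7), asparagine (17.2), cysteine (13.2), phenylalanine (8.27) and selenocysteine (5.64). Of 22 tRNA features with a mean of at least 100, 20 were lower in EV library 2, with a median log2 ratio of -0.70. Over the 206 miRNAs the median log2 ratio was 0.14 in the other direction.

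Reads of ribosomal RNA were few, at 0.391% of the annotated reads of EV library 1 (0.375 to 0.408%) and 0.223% of those of EV library 2 (0.205 to 0.241%), or 1.76 times higher in EV library 1. The 28S rRNA (RNA28SN5) had 959 and 577 normalized counts, the 5.8S rRNA (RNA5-8SN5) 450 and 218 and the 18S rRNA (RNA18SN5) 161 and 128. Per length, the 5.8S rRNA was far ahead, with 4140 reads per 1000 bases in EV library 1 and 873 in EV library 2, against 273.2 and 71.4 for the 28S rRNA and 124 and 42.8 for the 18S rRNA. The adapter features held 30 and 8 reads, or 0.00518% and 0.00307% of the reads.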

How the data were processed

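Total small RNA of untreated H1299/EV cells was sequenced in 2 libraries on the Ion PGM. The authors trimmed the reads by quality and length, used SHRiMP to align them to miRBase and to sequences of tRNA, rRNA and adapters, used Novoalign for the genome (GRCh37, hg19 per the labels), counted them per feature with their own scripts and normalized the counts with the R package DESeq (version not given in the sources used here). Whether counting used the strand is not given in the sources used here. The deposited signal is thus the count of reads over the size factor of its library. The deposited tables of comparisons hold fold changes and p-values of the authors and were not used. The columns used were the untreated EV columns of the deposited table of EV and R273H cells and, as an alternative, the same libraries in the table of untreated and treated EV cells. The other 4 columns of these 2 tables were not used.

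Whole reads were recovered from all values (100%), each of which was a multiple of the worth of 1 read within the rounding of 0.01. The 902 features in both tables had the same reads. The recovery and the ratios were tested on simulated data. Depth was 579337 and 260160 annotated reads. Shares have exact binomial intervals at 95% (scipy 1.17.1, Python 3.11.15), and levels are given per library or as mean ± SD (n = 2). Log2 ratios have a pseudocount of 1. Seeds are bases 2 to 8 of the RefSeq mature sequence (GRCh38.p14), and arms were summed by hairpin name. No group was compared with another and no test was run, so there are no p-values.

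Named miRNAs were the 20 highest by mean, the members of the 10 highest seed families, the arms of the 20 highest miRNAs, the 5 precursors at each end and at the middle of the arm ratios, the 5 miRNAs at each end of the ratio between libraries (mean of at least 100), the 10 highest tRNA features, each amino acid, each rRNA and each member of the marker and gene lists that the table held. The let-7, miR-107, miR-17, miR-423 and antisense pairs, and the minor arms named with their ranks, were named after their values were seen. The members and lists were chosen with earlier results of these data known.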

Additional observations from a re-analysis of the deposited data

How the results depend on the processing

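Beside leaving out a library, 36 alternatives to the 9 main results were computed, and 30 left the value within the SD of the libraries or, for counts and for the ratio between libraries, within 1.5 times. Rescaling by within-library shares left the levels of the 20 highest miRNAs within their SD. Leaving out 1 of 2 libraries cannot move a mean by more than that SD, so it was read against 1.5 times, which was passed by 1 of 40 levels, that of miR-30c-5p, from 15223 to 10041 without EV library 2. Leaving out miR-21-5p changed the share of the 10 highest miRNAs from 74.5% to 59.8% and that of the 10 highest seed families from 78.4% to 66.6%, by construction. With 1 read as the minimum, 353 miRNAs in place of 185 were counted in both libraries. The median absolute log2 arm ratio of 4.67 became 4.89 with a pseudocount of 0.5, 3.95 with a pseudocount of 5 and 5.31 for totals of at least 100.

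Each library alone gave 73.7% to 75.2% for the 10 highest miRNAs, 78.1% to 78.9% for its own 10 highest families, 25 to 26 miRNAs for 90% of the reads, 185 to 230 miRNAs with at least 10 reads, 73 precursors led by the 5p arm, an arm ratio of 4.58 to 4.87, a tRNA share of 3.75% to 6.92% and an rRNA share of 0.223% to 0.391%. The tRNA and rRNA shares are so unequal that their means (5.31% and 0.306%) describe neither library. The median log2 ratio of EV library 2 to EV library 1 over 206 miRNAs fell from 0.14 to 0.04 when the libraries were scaled to equal miRNA reads, and 112 in place of 131 were then higher in EV library 2. With equal upper quartiles the values were 0.14 and 132. No paired analysis was possible because the group has 2 libraries and no test was run. Depth limits what can be said of the 569 miRNAs under 10 reads in a library.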

Other observations

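Some miRNAs of the table are the reverse complement of an abundant one, and these were looked up after the values were seen. The mature sequence of miR-103b is the reverse complement of that of miR-103a-3p over 23 bases, and that of miR-3074-5p matches the reverse complement of miR-24-3p over 20 bases. They are printed with the seed in capitals to show the overlap:
miR-103a-3p: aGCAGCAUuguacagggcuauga
miR-103b: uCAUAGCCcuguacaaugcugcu
miR-24-3p: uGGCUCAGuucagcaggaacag
miR-3074-5p: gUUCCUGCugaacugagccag
The normalized counts of miR-103b were 72.7 and 55.8, and its reads were 0.847% of those of miR-103a-3p in EV library 1 and 0.632% in EV library 2. Those of miR-3074-5p were 118 and 47.8, with 0.876% and 0.422% of the reads of miR-24-3p. The same arrangement holds for miR-3529-3p and miR-7-5p (18 and 2 reads against 1414 and 767) and for miR-374c-3p and miR-374b-5p (3 and 4 reads against 559 and 435). Whether the counts of the lower partner come from its own strand cannot be told apart from reads of the abundant partner on the other strand.

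Over 86 miRNAs with a mean of at least 100 and a matched sequence, the log2 ratio of EV library 2 to EV library 1 was lower where GC content was higher (Pearson's r = -0.33, Spearman's rho = -0.39, across miRNAs that share both libraries and are not independent replicates). Without the 2 miRNAs furthest from the median GC content the values were -0.31 and -0.37. Of the 22 miRNAs under 40% GC, 19 were higher in EV library 2, and of the 31 with at least 50% GC, 15 were. This relation was examined after the values were seen, and its part in the differences between the libraries was not tested.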
